A study of Mus musculus with 23 samples.

Results

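The step from 4 h to 8 h of treatment with NVP-LDE225, which blocks Smoothened, the membrane protein that passes on the Hedgehog signal, was followed in medulloblastoma allografts placed under the skin of mice. Its members are the arrays whose description gives the drug at 40 mg/kg and 8 h (3 arrays) or the same dose and 4 h (3 arrays), so 6 of the 23 arrays of the series. No vehicle array enters the comparison, and the labels give no vehicle array for 8 h, so the time on drug and the time of day cannot be told apart. The labels of all 6 arrays describe tumours grown from Ptch+/-HIC+/- medulloblastoma cells inoculated into the right flank of nude (nu/nu) mice, and dosing started about 10 days after implantation. Both groups carry the same alleles and the same drug at the same dose, and by their description they differ only in the time. Their status label is Sensitive, while the source name of 5 of the 6 arrays speaks of resistant tumours. That of 4 h replicate 1 has the word treated instead. The description was followed here. The labels do not say whether replicates came from separate animals, and the p-values therefore reflect the spread among these 6 arrays only, which may be technical.

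Hedgehog ligands bind the receptor Ptch1, which then stops holding back Smoothened, and the signal ends in the Gli transcription factors. Loss of Ptch1 leaves the pathway on in granule neuron progenitors of the cerebellum and in the medulloblastomas that arise from them, where it keeps cells dividing. Dividing cells load the MCM helicase onto replication origins in G1, copy DNA in S phase and build the mitotic apparatus later, and E2F transcription factors drive many genes of the first of these steps.

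The values are MAS5 signals, a brightness in arbitrary units with every array scaled to the same trimmed mean. The median signal of the 6 arrays ran from 33.9 to 38.4 and their highest signal from 14045.7 to 18141.4. A sign of RNA integrity, the 3' over 5' signal of actin control probe sets on the log2 scale, was 1.1 to 1.39 at 4 h and 1.18 to 1.34 at 8 h. All 12 markers of granule-lineage medulloblastoma passed the filter on low values, with a summed signal of 14300.0 to 16390.0 at 4 h and 15880.0 to 17200.0 at 8 h. Of these 12, 1 was called higher, Barhl1, and 2 lower, Gli1 and Gli2, so the sum covers members that moved in opposite directions. Over 12 lists of markers for other cells, such as vessels, fibroblasts, blood, muscle and skin, 2 of 116 tested genes were called. That is a smaller share than the 3.82% called over all genes. The 2 were the glial genes S100b and Pmp22, both lower, at -0.62 (adjusted p = 0.0073) and -0.58 (adjusted p = 0.035). In the 23-array fit their adjusted p-values were 0.67 and 0.44. Of 15 lymphocyte and natural killer markers, 11 stayed below the 40th percentile of every array. In bulk tumour, fewer cells of a type and less RNA per cell cannot be told apart.

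Between 4 h and 8 h, 32 of 38 genes of the replication fork and 5 of 16 Hedgehog targets fell, and a smaller number of genes rose, among them Igfbp5 and Igfbp2, which bind insulin-like growth factors, and Syt1, a protein of synaptic vesicles. Of these 3, Syt1 alone was also called in a fit of all 23 arrays. A probe set was called at an adjusted p under 0.05 in limma over all tested probe sets, with differences on the scale of log2(signal + 16), which understates the change of low genes. Of 27247 tested probe sets 726 were called (2.66%), 267 higher (0.98%) and 459 lower (1.68%). The arrays of both groups did not overlap for any of the 726, while over all tested probe sets the groups were apart in 20.8%. Among the called ones, 90 probe sets were lower by at least 1 on the log2 scale and 28 were higher by as much. Counting 1 probe set a gene, 3.82% of 12153 genes were called, 1.4% higher and 2.42% lower, and these are the shares against which each list is read below. By the same count 5432 of the 12153 genes had a difference below 0. The share of groups without overlap, 20.8%, is over probe sets and was not taken over genes. Of the 330 genes with any lower probe set, 80 belong to 5 lists of cell cycle genes with 170 tested genes, and none of the 205 genes with any higher probe set does.

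**Figure D1:**
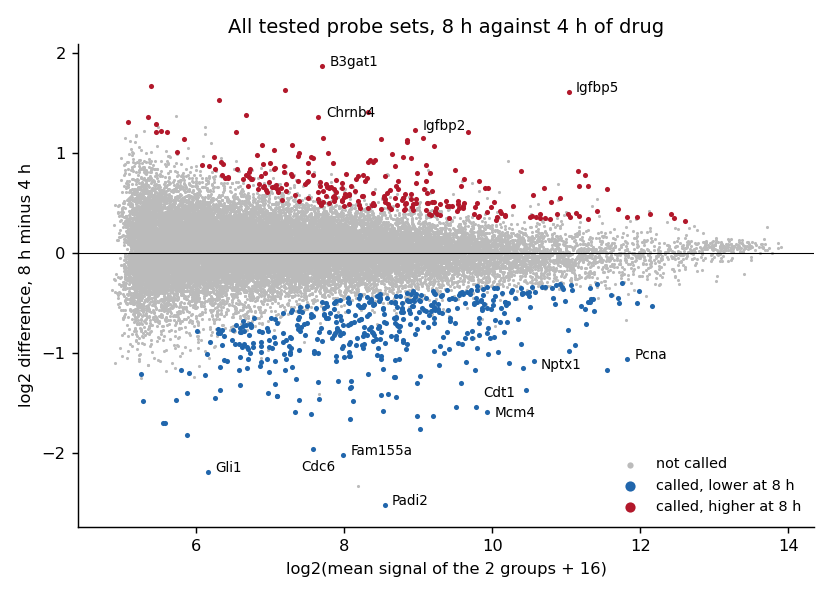
Each point is a tested probe set, with the log2 of the mean signal of both groups plus 16 on the horizontal axis and the log2 difference, 8 h minus 4 h, on the vertical axis. Blue points are the 459 called lower and red points the 267 called higher; Padi2, Gli1, Fam155a and Cdc6 lie lowest among the labelled falls and B3gat1 and Igfbp5 highest among the labelled rises.

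The number of calls differed between fits. When the 8 h to 4 h difference was taken from a model of all 23 arrays, which share 1 estimate of the spread, 180 probe sets were called, and adjusted p-values from that model are quoted as the 23-array fit. Counting 1 probe set a gene, it called 0.165% of the genes higher and 0.773% lower, which are the shares for the list counts of that fit. Without 8 h replicate 1, 355 were called, without 4 h replicate 2, 359, without 8 h replicate 3, 362, and without 4 h replicate 3, 473. Without 8 h replicate 2, 506 were called, and without 4 h replicate 1, the array with the other source name, 834. Whichever of the 6 arrays was left out, 285 probe sets were called, 218 lower and 67 higher.

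Some Hedgehog target genes fell between 4 h and 8 h. Of 16 tested targets 5 were called lower, 0 higher and 11 neither, and 12 had a difference below 0, with a median difference of -0.289 against 0.0281 over all genes. Over all genes 2.42% were called lower and 5432 of 12153 were below 0. Gli1, the Gli factor that the pathway itself induces and that serves as its usual readout, had signals of 121.7, 96.6 and 82.2 at 4 h and 4.7, 23.5 and 3.4 at 8 h. At 8 h it was thus below the median signal on every array, after a 4 h vehicle level of 608.2 ± 129 (SD, n = 2), and the groups did not overlap (log2 difference -2.19, SE 0.29, adjusted p = 0.0012). Ptch1, the receptor for Hedgehog ligands, which the pathway also induces, had 1105, 1131 and 1049 at 4 h and 679.7, 783.5 and 728.9 at 8 h. All 3 arrays of 8 h lay below all 3 of 4 h (log2 difference -0.57, SE 0.085, adjusted p = 0.0025), and both lay below the 4 h vehicle mean of 2232. Only 1 of the 2 tested Ptch1 probe sets was called.

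Gli2, the main activator among the Gli factors, had signals of 710.9, 737.3 and 645.8 at 4 h and 483.7, 423.4 and 487.6 at 8 h, again without overlap (log2 difference -0.57, SE 0.095, adjusted p = 0.0059). Hhip, a membrane protein that binds Hedgehog ligands and is itself induced by the pathway, had 179.2, 122.3 and 117.1 at 4 h and 56.1, 73.4 and 64.4 at 8 h. Its 8 h arrays all lay below its 4 h arrays (log2 difference -0.93, SE 0.18, adjusted p = 0.014), though without 8 h replicate 1 its adjusted p was 0.074. Cdk6, a G1 kinase counted among the targets, fell by 0.79 (adjusted p = 0.0016). In the 23-array fit Gli1 was called (adjusted p = 0.00057), while Gli2, Cdk6, Ptch1 and Hhip had adjusted p-values of 0.057, 0.059, 0.081 and 0.33.

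Most other targets and most of the core of the pathway were not called. Ccnd1, cyclin D1, had 2372, 1939 and 2207 at 4 h and 1739, 1667 and 1876 at 8 h; the groups were apart but the difference of -0.30 (adjusted p = 0.12) was not called, and 1 of its 3 probe sets was. Mycn, a growth-promoting transcription factor, gave 0.23 (adjusted p = 0.36), and its groups overlapped. Smo, the drug's target, gave -0.14 (adjusted p = 0.5), from a probe set whose probes may match other transcripts, and Sufu, an inhibitor of the Gli factors, -0.022 (adjusted p = 0.95). Of 18 tested pathway components 1 was called, the co-receptor Cdon with -0.52 (adjusted p = 0.013), and without 8 h replicate 3 its adjusted p was 0.081.

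Many of the genes that prepare replication origins fell. Of 24 tested genes for origin licensing and the MCM helicase, 14 were called lower and 0 higher, with a median of -0.708, against the 2.42% of all genes called lower. All 14 were called whichever array was left out, and 11 of the list in the 23-array fit, which called 0.773% of all genes lower. Cdt1, which loads the helicase onto origins, had 1275, 1316 and 1295 at 4 h and 425.1, 449.8 and 431.3 at 8 h, with little spread within each time (log2 difference -1.54, SE 0.079, adjusted p = 3.5e-06). Cdc6, its partner in loading, had 249.3, 308.7 and 302.4 at 4 h and 58, 77.7 and 50.5 at 8 h. That is a 3.9-fold fall on the same scale (log2 difference -1.96, SE 0.16, adjusted p = 3.1e-05), and no array of 8 h came near those of 4 h.

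Promoter sequence was read for these genes because E2F factors are known for acting at such sites. The promoters, from RefSeq on GRCm38.p6, span 250 bases before to 50 after the start site. Searched on both strands were TTTGGCGC, TTTCGCGC, TTTCCCGC and TTTGCCGC, whose matches may overlap each other because TTTCGCGC and the reverse complement of TTTGGCGC share letters. Such a match is a description of letters and not a bound site. It was present in 4.77% of 9818 tested genes with a promoter, in 16.7% of 263 genes with a lower probe set, and in 2.35% of 170 with a higher one. By list it was present in 10 of 19 licensing genes with a promoter, 9 of 33 fork genes, 5 of 23 repair genes, 8 of 24 E2F and G1 genes and 2 of 42 mitosis genes. Among licensing genes it was present in 6 of 10 that were called lower and 4 of 9 that were tested and not called, and among fork genes in 9 of 28 and 0 of 5. For repair genes these numbers were 3 of 9 and 1 of 13, for E2F and G1 genes 3 of 7 and 4 of 16, and for mitosis genes 1 of 9 and 1 of 33. The letters TGGGTGGTC, known as a Gli motif and searched on both strands too, were present in 0.234% of tested genes with a promoter, 0.76% of those with a lower probe set, 0.588% of those with a higher one and in 0 of 11 Hedgehog targets. Stretches of 60 bases from before the start site of 7 genes that fell are shown 5' to 3' on the gene's strand to let these matches be seen, with the matches in capitals. The match of Mcm6 and that of Cdc6 start 110 and 138 bases before their start sites, and Mcm6 holds a pair of overlapping matches.
Cdc6, chr11:98907987-98908046, plus strand: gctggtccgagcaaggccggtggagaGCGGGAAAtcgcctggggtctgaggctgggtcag
Mcm6, chr1:128359782-128359841, minus strand: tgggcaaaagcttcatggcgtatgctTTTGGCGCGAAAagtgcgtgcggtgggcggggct
Mcm7, chr5:138172015-138172074, minus strand: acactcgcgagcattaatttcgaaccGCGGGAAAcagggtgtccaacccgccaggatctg
Uhrf1, chr17:56304102-56304161, plus strand: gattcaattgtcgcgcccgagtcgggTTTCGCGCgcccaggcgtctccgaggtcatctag
Pola1, chrX:93632260-93632319, minus strand: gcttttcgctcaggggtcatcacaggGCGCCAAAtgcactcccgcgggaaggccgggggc
Topbp1, chr9:103305172-103305231, plus strand: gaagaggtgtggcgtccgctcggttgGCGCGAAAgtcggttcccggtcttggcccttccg
E2f7, chr10:110745215-110745274, plus strand: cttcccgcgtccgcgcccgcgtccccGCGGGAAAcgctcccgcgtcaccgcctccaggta

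The MCM helicase, which unwinds DNA at the fork, is built of Mcm2 to Mcm7, and all of its subunits were called lower. Mcm4 had 1456, 1432 and 1470.0 at 4 h and 482.1, 414.4 and 529 at 8 h, a 3.0-fold fall (log2 difference -1.59, SE 0.095, adjusted p = 5.4e-06). Mcm3 gave -1.54 (adjusted p = 5e-06), Mcm5 -1.37 (adjusted p = 1.5e-05), Mcm2 -1.12 (adjusted p = 3.7e-05), Mcm6 -0.78 (adjusted p = 0.0011) and Mcm7 -0.53 (adjusted p = 0.0018); the probe sets of Mcm3, Mcm5 and Mcm7 may share probes with other transcripts and are uncertain. The difference thus ran from -0.53 to -1.59 within the one complex. Gmnn, geminin, which binds Cdt1 and blocks its loading function, fell as well, by 0.96 (adjusted p = 0.00023).

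Factors that turn the loaded helicase on were also lower. Cdc45, which joins the helicase at firing, gave -1.0 (adjusted p = 0.0022), and the GINS subunits Gins2 and Gins1, which join it too, -0.98 (adjusted p = 0.00076) and -0.82 (adjusted p = 0.0046). Mcm10 gave -0.79 (adjusted p = 0.0047) and the initiating kinase Cdc7 -0.64 (adjusted p = 0.0023). In the 23-array fit Gins1, Gins2 and Mcm10 had adjusted p-values of 0.054, 0.082 and 0.098. The 10 members that were not called include every tested subunit of the origin recognition complex, Orc1 to Orc6, from -0.53 (adjusted p = 0.33) for Orc1 to 0.058 (adjusted p = 0.84) for Orc4, and Dbf4, the activator of Cdc7, with -0.27 (adjusted p = 0.11).

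Genes of the replication fork and of nucleotide supply fell almost throughout. Of 38 tested, 32 were called lower and 0 higher, all 38 had a difference below 0, 37 had groups that did not overlap, and the median was -0.813. Over all genes 2.42% were called lower and 5432 of 12153 were below 0, and 20.8% of all tested probe sets did not overlap. Leaving out any 1 array kept 27 of the 32 called. In the 23-array fit, which called 0.773% of all genes lower, 22 of the list were called. Pcna, the clamp that holds the polymerases on DNA, had 4457, 4696 and 5532 at 4 h and 2179, 2414 and 2394 at 8 h. Its level was 2.09-fold lower at 8 h, and the lowest 4 h array was above the highest 8 h array by a wide margin (log2 difference -1.06, SE 0.09, adjusted p = 4.7e-05).

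Uhrf1, which reads half-methylated DNA behind the fork, had 1243, 1171 and 1148 at 4 h and 505.5, 523.1 and 531 at 8 h (log2 difference -1.17, SE 0.081, adjusted p = 1.5e-05). Dnmt1, the maintenance methyltransferase that acts with it, gave -0.78 (adjusted p = 0.00039), and Hells, a chromatin remodeller tied to DNA methylation, -1.41 (adjusted p = 3e-05). These 3, together with Suz12 at -0.37 (adjusted p = 0.042), were the called members among 23 tested polycomb and DNA methylation genes, and Suz12 lost its call whichever array was left out. Chaf1b, a subunit of the complex that lays histones on new DNA, had 241.6, 261.9 and 336.6 at 4 h and 94.6, 72.5 and 106.6 at 8 h and the most negative difference of the called fork genes (log2 difference -1.46, SE 0.16, adjusted p = 0.00032).

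Polymerase subunits and clamp loaders were mostly called. The clamp loader subunits Rfc3, Rfc4 and Rfc5 gave -0.74 (adjusted p = 0.022), -0.76 (adjusted p = 0.01) and -0.65 (adjusted p = 0.0056), and the first of these was called in 2 of the 6 fits that leave out an array. The catalytic subunits Pole, Pold1 and Pola1 gave -1.24 (adjusted p = 0.0002), -0.98 (adjusted p = 0.00015) and -0.79 (adjusted p = 0.0014). Among the accessory parts Pole2, Pola2, Prim1 and Prim2 were called as well, with differences of -0.95, -1.0, -0.80 and -0.73. Lig1, which seals Okazaki fragments, gave -0.999 (adjusted p = 0.00015), and the single-strand binding proteins Rpa1 and Rpa2 -0.93 (adjusted p = 9e-05) and -1.03 (adjusted p = 0.00068). Clspn, Timeless and Tipin, which stabilise the fork, gave -1.21, -1.16 and -0.82, each called. Members that were not called were Asf1b, Fen1, Rfc1, Rfc2, Rnaseh2a and Rpa3, with differences from -0.48 to -0.17.

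Enzymes of deoxynucleotide supply were lower too. Rrm2, the regulated subunit of ribonucleotide reductase, had 2792, 2611 and 2912 at 4 h and 1419, 1291 and 1494 at 8 h (log2 difference -0.98, SE 0.082, adjusted p = 4.3e-05), from a probe set that may share probes. Its partner Rrm1 gave -0.55 (adjusted p = 0.0037), thymidine kinase Tk1 -0.95 (adjusted p = 0.00054) and dUTPase Dut -0.70 (adjusted p = 0.00056). Tyms, thymidylate synthase, gave -0.89 (adjusted p = 0.021), and 0.11 as its adjusted p without 4 h replicate 2. For Rrm1, Dut, Tyms and Tk1 the 23-array fit gave adjusted p-values of 0.079, 0.058, 0.12 and 0.28.

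Some of the enzymes upstream, which make serine, folates and purines, fell. Of 15 tested serine, folate and one-carbon genes 6 were called lower and 0 higher, with a median of -0.373. Mthfd1l, a mitochondrial folate enzyme, had 210.7, 257.2 and 261.5 at 4 h and 146.7, 131.8 and 133.6 at 8 h and did not overlap between times (log2 difference -0.75, SE 0.12, adjusted p = 0.0055). Mthfd2 gave -0.67 (adjusted p = 0.017), Shmt1 -0.61 (adjusted p = 0.02), Pfas, an enzyme of purine synthesis, -0.48 (adjusted p = 0.018), Shmt2 -0.43 (adjusted p = 0.025) and Phgdh -0.37 (adjusted p = 0.038). Leaving out 1 array kept only Mthfd1l called in every case, and without 8 h replicate 3 the adjusted p of Mthfd2 was 0.089. The 23-array fit called 3 of the list.

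Among DNA repair and checkpoint genes, many of which act at stalled forks, 11 of 27 tested were called lower and 0 higher, with 26 of the 27 below 0 and a median of -0.541. Over all genes 2.42% were called lower and 5432 of 12153 were below 0. Tonsl, which works in repair at stalled forks, had 190.5, 236.8 and 212.3 at 4 h and 94.7, 78.3 and 66.7 at 8 h and fell most among the called ones (log2 difference -1.26, SE 0.15, adjusted p = 0.00054). Topbp1, which activates the checkpoint kinase Atr, had 994.4, 1091 and 1149 at 4 h and 580.2, 580.7 and 610.0 at 8 h (log2 difference -0.85, SE 0.085, adjusted p = 0.00018). The checkpoint kinase Chek1 gave -0.82 (adjusted p = 0.0012), Rad51ap1 -0.87 (adjusted p = 0.00033), Rad54l -0.83 (adjusted p = 0.0016), Brca1 -0.79 (adjusted p = 0.0019), and the helicase Blm -0.69 (adjusted p = 0.0046). Atr and Chek2 were not called, with -0.18 (adjusted p = 0.48) and -0.024 (adjusted p = 0.94). Brca2, Fanca and Exo1 were called only narrowly, and each lost its call in 5 of the 6 fits that leave out an array; 7 of the 27 were called in the 23-array fit.

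Regulators of entry into S phase were split. Of 31 tested E2F and G1 genes 8 were called lower and 0 higher, with a median of -0.219. Ccne2, cyclin E2, which drives the kinase Cdk2 at the start of S phase, had 204.6, 299.5 and 299.9 at 4 h and 81.8, 72 and 73 at 8 h. Its 4 h replicate 1 was lower than the other two 4 h arrays, and even so lay well above all 8 h arrays (log2 difference -1.61, SE 0.16, adjusted p = 0.00014). The repressive E2F members E2f7 and E2f8 gave -0.78 (adjusted p = 0.0021) and -0.74 (adjusted p = 0.01), the E2F partner Tfdp1 -0.55 (adjusted p = 0.002) and the pocket protein Rbl1 -0.56 (adjusted p = 0.0054). Without 8 h replicate 1 the adjusted p of E2f8 was 0.059.

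Activating E2F members and most kinases of this list were not called. E2f1 had 493.4, 386.7 and 321.6 at 4 h and 276.1, 305.6 and 265.8 at 8 h, without overlap, and the difference was not called (log2 difference -0.46, SE 0.14, adjusted p = 0.11). E2f2 gave -0.62 (adjusted p = 0.06) and E2f3 -0.15 (adjusted p = 0.56), Ccne1 -0.47 (adjusted p = 0.062), Cdk2 -0.36 (adjusted p = 0.11) and Cdk4 0.027 (adjusted p = 0.91). The kinase inhibitors Cdkn1a, Cdkn1b and Cdkn1c gave -0.15 (adjusted p = 0.51), 0.31 (adjusted p = 0.24) and 0.29 (adjusted p = 0.27). The 23-array fit called 3 genes of the list, Ccne2, Tfdp1 and E2f7.

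**Figure D2:**
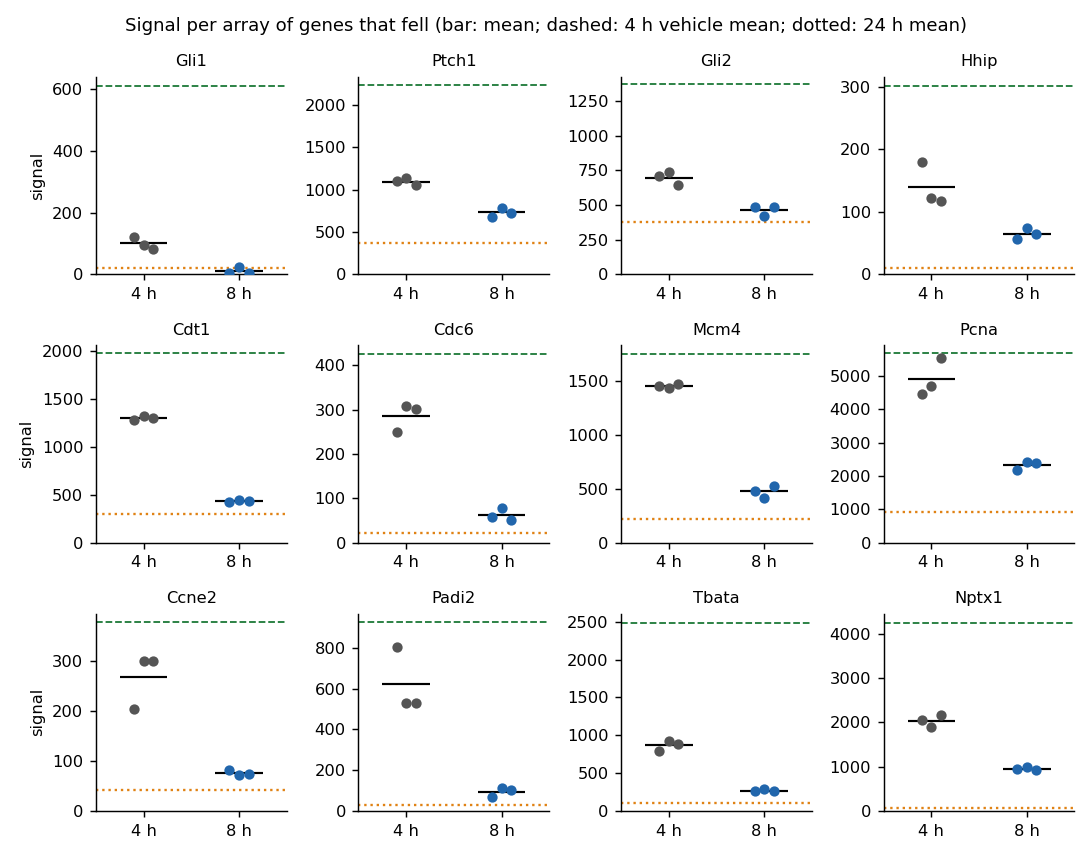
Each panel shows the signal of 1 gene on the 3 arrays of 4 h (grey) and the 3 arrays of 8 h (blue), with the axis starting at 0 and a bar at each mean; the dashed line is the mean of the 2 vehicle arrays of 4 h and the dotted line the mean of the 3 drug arrays of 24 h. In all 12 genes shown the arrays of 8 h lie below those of 4 h.

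Of 50 tested mitosis genes 10 were called lower and 0 higher, with a median of -0.197. Of the 50, 43 were below 0, against 5432 of 12153 over all genes. For 26 of them the groups did not overlap, against 20.8% of all tested probe sets. Smc2, a core condensin subunit, had 2933, 2993 and 3204 at 4 h and 1851, 1770.0 and 1948 at 8 h (log2 difference -0.71, SE 0.076, adjusted p = 0.0003). Cenpk and Cenpi, of the inner kinetochore, gave -0.71 (adjusted p = 0.0012) and -0.77 (adjusted p = 0.004), the condensin subunit Ncaph -0.56 (adjusted p = 0.0025) and Cdca5, which protects cohesion, -0.55 (adjusted p = 0.006).

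Cdk1, the mitotic kinase, had 2069, 2152 and 2142 at 4 h and 1722, 1694 and 1718 at 8 h, a small but regular fall (log2 difference -0.31, SE 0.071, adjusted p = 0.04), and without 8 h replicate 3 its adjusted p was 0.15. Top2a gave -0.30 (adjusted p = 0.042), Bub1 -0.36 (adjusted p = 0.042), Aurkb -0.41 (adjusted p = 0.04) and Birc5 -0.35 (adjusted p = 0.038), and these complete the 10 called genes. Cdc20, Plk1, Aurka, Ube2c and Mki67 were not called, with -0.12, 0.27, 0.12, 0.19 and -0.17. When each array was left out in turn, 5 to 13 mitosis genes were called, 5 of them every time, and in the 23-array fit, with 0.773% of all genes called lower, 2 were.

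**Figure D3:**
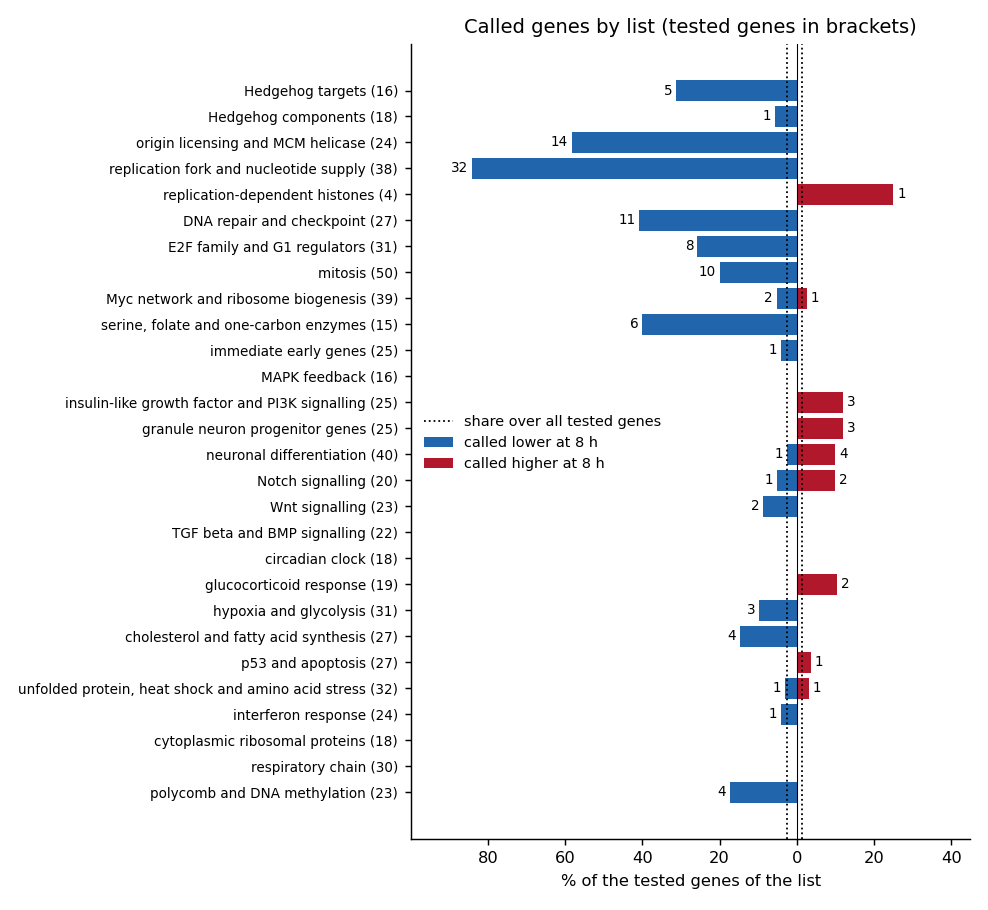
Bars give the share of each list's tested genes called lower (blue, to the left) and higher (red, to the right) at 8 h, with the number of genes at the end of each bar, the number tested in brackets and dotted lines at the shares over all genes, 2.42% lower and 1.4% higher. The 32 of 38 fork genes and 14 of 24 licensing genes make the longest bars, and lists such as the circadian clock and the respiratory chain have none.

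Some of the largest falls lay outside these lists. Padi2, an enzyme that turns arginine residues of proteins into citrulline, had 804, 528.1 and 531.8 at 4 h and 69.9, 113.3 and 101.4 at 8 h, a 5.72-fold fall and the most negative difference of any called gene (log2 difference -2.52, SE 0.18, adjusted p = 1.9e-05). Its 24 h mean was lower still, at 31.13 ± 15.3 (SD, n = 3). Tbata had 4 tested probe sets, all called lower; the one with the highest signal read 795.8, 929.2 and 889.3 at 4 h and 259.8, 286.4 and 263.2 at 8 h (log2 difference -1.63, SE 0.095, adjusted p = 5e-06), after a 4 h vehicle mean of 2490.0, and may share probes. Fam155a had 412.6, 359.4 and 397.2 at 4 h and 104.4, 60.2 and 92.3 at 8 h (log2 difference -2.02, SE 0.16, adjusted p = 3.1e-05).

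Others of the large falls end at the bottom of the scale. Epha8, an ephrin receptor, had 73.8, 51.6 and 45 at 4 h and 1.4, 3 and 16.7 at 8 h, and Prr16 had 53.8, 46.4 and 65.6 at 4 h and 11.9, 5.2 and 1.7 at 8 h. Their differences of -1.70 and -1.70 rest on 8 h signals close to 0, and without 4 h replicate 2 the adjusted p of Epha8 was 0.055. Nptx1, a secreted protein of excitatory synapses, differed from these in starting high. It had 2047, 1893 and 2170.0 at 4 h and 938.6, 988.6 and 934.5 at 8 h (log2 difference -1.08, SE 0.08, adjusted p = 2.1e-05), and its mean went from 4254 in 4 h vehicle to 72.23 at 24 h.

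Rises were fewer. Of 25 tested genes of insulin-like growth factor and PI3K signalling 3 were called higher and 0 lower, against the 1.4% of all genes called higher. Igfbp5, a secreted binder of insulin-like growth factors, had 1194, 1040.0 and 844 at 4 h and 3100.0, 3324 and 2988 at 8 h. Its 8 h arrays were about alike and 3.05-fold above those of 4 h (log2 difference 1.61, SE 0.11, adjusted p = 1.5e-05); the probe set may share probes, and the other one tested, with lower signals, gave 1.38 (adjusted p = 0.0016). Mean signals of Igfbp5 were 521.8 in 4 h vehicle and 7470.0 at 24 h.

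Igfbp2, another binder of these factors, had 297.4, 262.6 and 281.4 at 4 h and 630.5, 725.7 and 684.4 at 8 h (log2 difference 1.23, SE 0.096, adjusted p = 3.1e-05). Pik3r3, a regulatory subunit of PI3 kinase, had 1065, 908.2 and 892.4 at 4 h and 1745, 1652 and 1695 at 8 h (log2 difference 0.82, SE 0.087, adjusted p = 0.00027). In the 23-array fit Pik3r3 was called (adjusted p = 0.00063), while Igfbp2 and Igfbp5 had adjusted p-values of 0.22 and 0.13. The growth factors and receptors of the list were not called, with 0.16 (adjusted p = 0.78) for Igf1, 0.092 (adjusted p = 0.72) for Igf2 and -0.23 (adjusted p = 0.23) for Igf1r.

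Mxd4, which competes with Myc for its partner Max and acts as a repressor, had 317.3, 291.1 and 326.4 at 4 h and 613.5, 663.2 and 576.9 at 8 h, with no overlap (log2 difference 0.95, SE 0.096, adjusted p = 0.00018). It kept its call in the 23-array fit (adjusted p = 5.2e-05), and 2 of its 4 probe sets were higher. It was the 1 rise among 39 tested genes of the Myc network and ribosome biogenesis, where Nhp2 and Utp20, both of ribosome assembly, were lower at -0.35 (adjusted p = 0.029) and -0.47 (adjusted p = 0.046). Both of these lost their call whichever array was left out. Trp53inp1, a stress protein induced by p53, had 2085, 1801 and 1888 at 4 h and 2817, 3088 and 3280.0 at 8 h (log2 difference 0.67, SE 0.085, adjusted p = 0.00096) and was the 1 called gene of 27 tested in the p53 and apoptosis list, with an adjusted p of 0.083 in the 23-array fit.

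Genes of the granule neuron lineage and of neurons rose in part. Of 25 tested granule neuron progenitor genes 3 were called higher and 0 lower (median 0.216), and of 40 tested neuronal differentiation genes 4 higher and 1 lower (median 0.153). Over all tested probe sets the progenitor list had 7 higher and 0 lower and the neuronal list 6 higher and 5 lower. The neuronal list's median on single arrays overlapped between the times. Relative to the 4 h mean it was 0.156, -0.101 and -0.0209 at 4 h and 0.0789, 0.116 and 0.181 at 8 h. Barhl1, a homeobox factor of the granule lineage, had 568.4, 462.4 and 486 at 4 h and 822.4, 965.4 and 950.1 at 8 h (log2 difference 0.83, SE 0.1, adjusted p = 0.00068). Sox4 gave 0.39 (adjusted p = 0.03) and Hes6 0.35 (adjusted p = 0.042). Atoh1, the factor that defines the progenitors, gave 0.22 (adjusted p = 0.16) and was not called. Without 8 h replicate 3 the adjusted p-values of Sox4 and Hes6 were 0.16 and 0.15.

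Among the neuronal genes Syt1, the calcium sensor of synaptic vesicles, had 107.3, 71.1 and 78.4 at 4 h and 197.2, 182.1 and 209 at 8 h (log2 difference 1.08, SE 0.15, adjusted p = 0.0019). Snap25, a SNARE protein of vesicle fusion, had 770.9, 621.1 and 608.9 at 4 h and 1045, 1067 and 1204 at 8 h (log2 difference 0.72, SE 0.1, adjusted p = 0.0021). Cbln1, a synapse organiser of granule cells, gave 0.47 (adjusted p = 0.0086) and the RNA-binding protein Elavl3 0.49 (adjusted p = 0.042); the lower gene was Nptx1, described above. Without 4 h replicate 2 the adjusted p of Cbln1 was 0.052 and that of Elavl3 0.16. In the 23-array fit Syt1 (adjusted p = 0.037) and Nptx1 were the only called genes of the neuronal list, and none of the progenitor list was called.

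Hey1, a transcriptional repressor induced by Notch, had 170.5, 230.9 and 224.3 at 4 h and 438.9, 585.6 and 414.8 at 8 h (log2 difference 1.14, SE 0.15, adjusted p = 0.00096), and its 24 h mean was 774.3. It was 1 of 2 rises among 20 tested Notch genes, beside Dll3 at 0.34 (adjusted p = 0.047), and Jag2, a Notch ligand, was lower at -0.83 (adjusted p = 0.025). The adjusted p of Hey1 in the 23-array fit was 0.27. Wnt genes gave 2 falls in 23 tested, the secreted inhibitor Wif1 at -0.82 (adjusted p = 0.0037) and the receptor Fzd1 at -0.45 (adjusted p = 0.01). Without 8 h replicate 3 the adjusted p-values of Jag2 and Fzd1 were 0.11 and 0.074, and without 4 h replicate 3 that of Dll3 was 0.18. Neither Wnt gene was called in the 23-array fit (adjusted p = 0.46 for Wif1 and 0.16 for Fzd1).

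Outside these lists, B3gat1, Cemip and Chrnb4 were among the largest rises. B3gat1, which makes the HNK-1 sugar epitope of neural cells, had 111.2, 77.9 and 40.9 at 4 h and 292.5, 332.8 and 294.1 at 8 h, a 3.66-fold rise with a wide 4 h spread (log2 difference 1.87, SE 0.23, adjusted p = 0.00066). Cemip, a hyaluronan-degrading protein, had 182.7, 151.8 and 143.2 at 4 h and 426.4, 436.1 and 487 at 8 h (log2 difference 1.41, SE 0.12, adjusted p = 3.7e-05). Chrnb4, a nicotinic receptor subunit, had 104.3, 90.6 and 95.7 at 4 h and 254.4, 299.5 and 266.5 at 8 h (log2 difference 1.36, SE 0.12, adjusted p = 8.1e-05), and its 24 h mean was 866.3. In the 23-array fit B3gat1 and Cemip were called (adjusted p = 0.0086 for each) and Chrnb4 was not (adjusted p = 0.25). The RNA gene A330076H08Rik had 19.8, 87.9 and 73.3 at 4 h and 259, 174.5 and 171.5 at 8 h, and its adjusted p was 0.1 without 8 h replicate 1.

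Some rises in the upper ranks come from signals near the floor. Rara, a retinoic acid receptor, had 3.8, 2 and 4.2 at 4 h and 23, 38.4 and 35.2 at 8 h, and it was called in none of the 6 fits that leave out an array. A Marcks probe set rose by 1.67 from signals of 8.8, 1.8 and 1 at 4 h and 32.1, 48.2 and 63 at 8 h, while the other 6 tested probe sets of that gene were not called and its adjusted p was 0.11 without 8 h replicate 3.

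Markers of fibroblasts and matrix lay mostly on the same side as these rises, with ranges that overlap between the times. Their summed signal over 17 genes was 9416 to 16370.0 at 4 h and 15110.0 to 18530.0 at 8 h, with 13 of 17 differences above 0, a median of 0.501 and 0 genes called; Dcn, Col6a3 and Col1a1 gave 0.87 (adjusted p = 0.31), 0.72 (adjusted p = 0.09) and 0.70 (adjusted p = 0.35). Macrophage markers summed to 2479 to 3390.0 and 3080.0 to 3356, and skeletal muscle markers to 2323 to 4937 and 2108 to 5169. Endothelial markers did not overlap between the times. Their sum over 18 genes was 1276 to 1290.0 at 4 h and 1320.0 to 1558 at 8 h, the median of the 17 tested ones stood at -0.0029, 0.0291 and 0.0734 on the 4 h arrays and 0.177, 0.332 and 0.22 on the 8 h arrays relative to the 4 h mean, and 0 were called. The 2 vehicle arrays of 4 h had sums of 2025 and 2295. Sums of adipocyte markers over 9 genes lay on the side of the falls, again without overlap. They were 12650.0 to 13800.0 at 4 h and 10220.0 to 12350.0 at 8 h. The median of the 6 tested ones, relative to the 4 h mean, did overlap between the times. It stood at -0.392, 0.688 and -0.251 on the 4 h arrays and -0.251, -0.357 and -0.181 on the 8 h arrays. By the probe set that stands for each gene 0 of 6 were called, and 1 of their 13 tested probe sets was called lower. The part of such cells in the rises and falls was not tested.

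**Figure D4:**
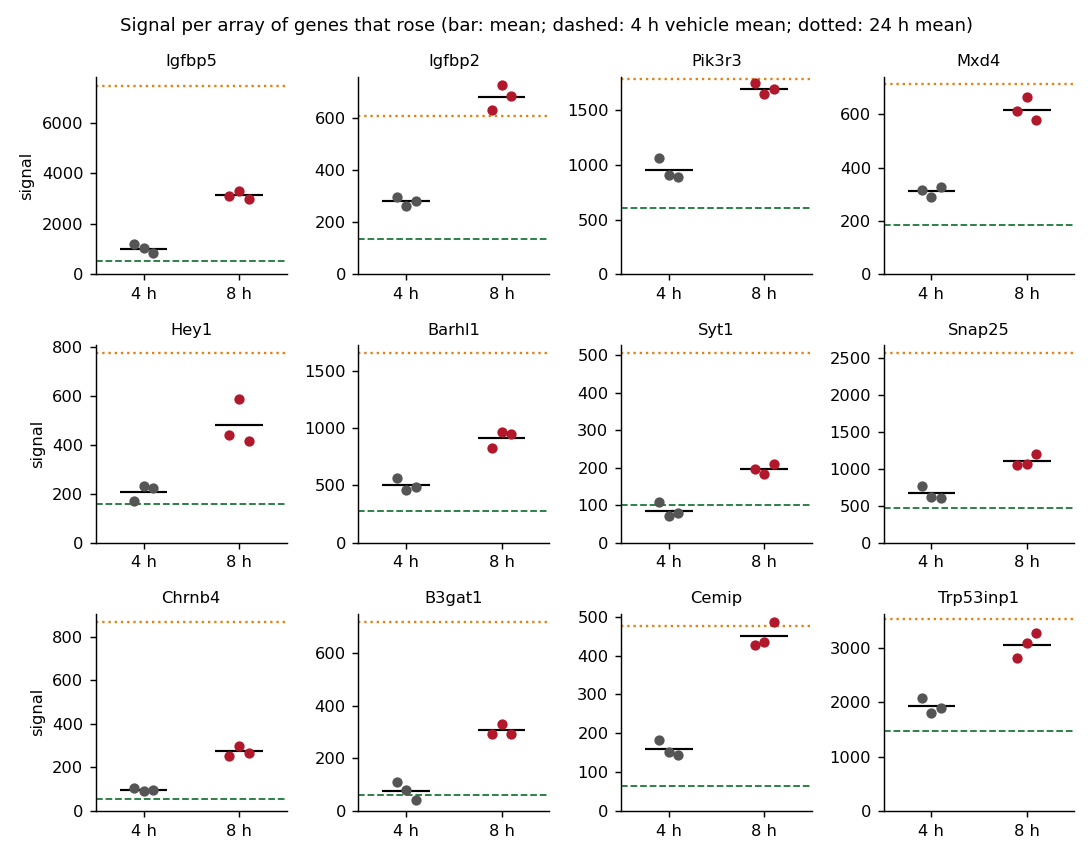
Each panel shows the signal of 1 gene on the 3 arrays of 4 h (grey) and the 3 arrays of 8 h (red), with the axis starting at 0 and a bar at each mean; the dashed line is the mean of the 2 vehicle arrays of 4 h and the dotted line the mean of the 3 drug arrays of 24 h. In all 12 genes shown the arrays of 8 h lie above those of 4 h.

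In the metabolic lists a minority of genes was called. Of 31 tested hypoxia and glycolysis genes 3 were called lower and 0 higher, against 2.42% of all genes called lower. The median was -0.41. Hk2, hexokinase, had 556.6, 480.6 and 390.5 at 4 h and 256.1, 221.9 and 258.8 at 8 h (log2 difference -0.90, SE 0.13, adjusted p = 0.002). Egln3, a hypoxia-induced prolyl hydroxylase, had 411.2, 424.4 and 245.9 at 4 h and 157.7, 171 and 207.5 at 8 h, and Slc2a1, the main glucose transporter, 323.8, 330.9 and 205.1 at 4 h and 156.6, 159.6 and 165.1 at 8 h; in both, 4 h replicate 3 lay nearer to the 8 h arrays than its fellows did. Without 4 h replicate 3, 12 genes of the list were called lower, while without 4 h replicate 2 Slc2a1 had an adjusted p of 0.12 and without 8 h replicate 1 Egln3 one of 0.09; in the 23-array fit 0 of the list were called, with Hk2 at 0.059. The list's median on single arrays, relative to the 4 h mean, was 0.22, 0.062 and -0.308 at 4 h and -0.347, -0.474 and -0.245 at 8 h, and the 2 vehicle arrays of 4 h stood at 0.172 and -0.494.

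Of 27 tested genes of cholesterol and fatty acid synthesis 4 were called lower and 0 higher, against 2.42% of all genes called lower. The difference was below 0 in 25 of 27, against 5432 of 12153 over all genes. For 16 of the 27 the groups did not overlap, against 20.8% of all tested probe sets. Idi1, of the isoprenoid steps, had 1036, 1538 and 1130.0 at 4 h and 731.5, 632.9 and 714.2 at 8 h (log2 difference -0.80, SE 0.13, adjusted p = 0.0046), and Hmgcs1, Fdft1 and Scd1 gave -0.47 (adjusted p = 0.015), -0.35 (adjusted p = 0.049) and -0.66 (adjusted p = 0.03). None of these 4 was called in the 23-array fit, where the adjusted p of Idi1 was 0.18, and Idi1 alone kept its call whichever array was left out. The metallothioneins Mt1, whose probes may be shared, and Mt2, which bind metals and respond to glucocorticoids, were the called genes of 19 tested in the glucocorticoid list, both higher at 0.78 (adjusted p = 0.027) and 0.64 (adjusted p = 0.0092). Leaving out 8 h replicate 1 gave an adjusted p of 0.13 for Mt1 and leaving out 8 h replicate 3 one of 0.064 for Mt2.

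Stress and early response genes were mostly not called. Egr1, an immediate early transcription factor, had 155.4, 124.3 and 122.3 at 4 h and 89.3, 50.8 and 75.9 at 8 h and was the 1 called of 25 tested immediate early genes (log2 difference -0.79, SE 0.18, adjusted p = 0.042), with 4 h vehicle at 336.2. Of 32 tested stress genes Hspb1 rose at 0.79 (adjusted p = 0.047) and Asns, asparagine synthetase, fell at -0.43 (adjusted p = 0.025). Ifit2 was the 1 called of 24 tested interferon genes, at -0.72 (adjusted p = 0.025). Over all genes 3.82% were called, so these few calls say little about the immediate early, stress and interferon lists as a whole. Among 4 tested histone genes H2aw rose at 0.77 (adjusted p = 0.0012). Egr1, Hspb1, Asns and Ifit2 each lost their call in at least 4 of the 6 fits that leave out an array.

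By the 1 probe set that stands for each gene, no gene was called by limma among 18 tested circadian clock genes, 16 of MAPK feedback, 22 of TGF beta and BMP signalling, 18 ribosomal proteins or 30 of the respiratory chain. Over all tested probe sets of these lists 1 was called, of Etv5 in the MAPK feedback list, with 0.52; its adjusted p without 8 h replicate 1 was 0.21. Differences of clock genes ran from -0.69 (adjusted p = 0.12) for Hlf to 0.50 (adjusted p = 0.54) for Bhlhe41, with Per1 at -0.056, Per2 at 0.11 and Dbp at 0.034.

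The next step of the time course, from 8 h to 24 h, was set against this one to see which genes move at a different time. The 2 steps share the 8 h arrays, so their difference was tested in 1 limma model of the 9 arrays, and the intervals are of unequal length. Of 29142 probe sets tested 5.63% were called, 2.48% with a more positive and 3.15% with a more negative later step. Counting 1 probe set a gene, 7.13% of 12869 genes were called, 3.27% with a more positive later step and 3.86% with a more negative one. Of the mitosis genes, 49 of 50 tested were called with a more negative later step, with a median of -2.91. Ube2c, which marks mitotic regulators for destruction, had a log2 difference of 0.19 from 4 h to 8 h and of -3.96 from 8 h to 24 h (difference of steps -4.15, SE 0.19, adjusted p = 2.5e-09). Its mean signals were 2733 ± 159 (SD, n = 3) at 4 h, 3134 ± 307 (SD, n = 3) at 8 h and 188 ± 30.2 (SD, n = 3) at 24 h.

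Cenpf, of the kinetochore, had steps of -0.08 and -3.77 (-3.69, SE 0.21, adjusted p = 2.8e-08), Dlgap5, a spindle protein, -0.04 and -3.72 (-3.68, SE 0.39, adjusted p = 2.2e-05), and Mki67, the proliferation marker, -0.17 and -3.49 (-3.33, SE 0.15, adjusted p = 2.9e-09). All 4 were called in the 23-array fit too, with adjusted p-values up to 3.1e-05. Plk1 had means of 533 at 4 h and 630.6 at 8 h, not called as a difference, and a later step of -3.12. Hmgb2, a chromatin protein, had steps of -0.073 and -3.43.

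Among fork genes 8 of 38 were called with a more negative later step and 0 with a more positive one, and among licensing genes 2 of 24 and 1. Cdt1 was the 1 positive gene: its steps were -1.54 and -0.54, so its earlier fall was the larger (1.00, SE 0.16, adjusted p = 0.0011), though the 23-array fit gave an adjusted p of 0.054. Pcna had -1.06 and -1.31, and the difference was not called (adjusted p = 0.4). Rrm2 had -0.98 and -2.69 (-1.71, SE 0.18, adjusted p = 1.6e-05). Gli1 had steps of -2.19 and 0.33; its 8 h signals were already at the bottom of the scale, which left little room for a further fall, so no difference between its steps is read.

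**Figure D5:**
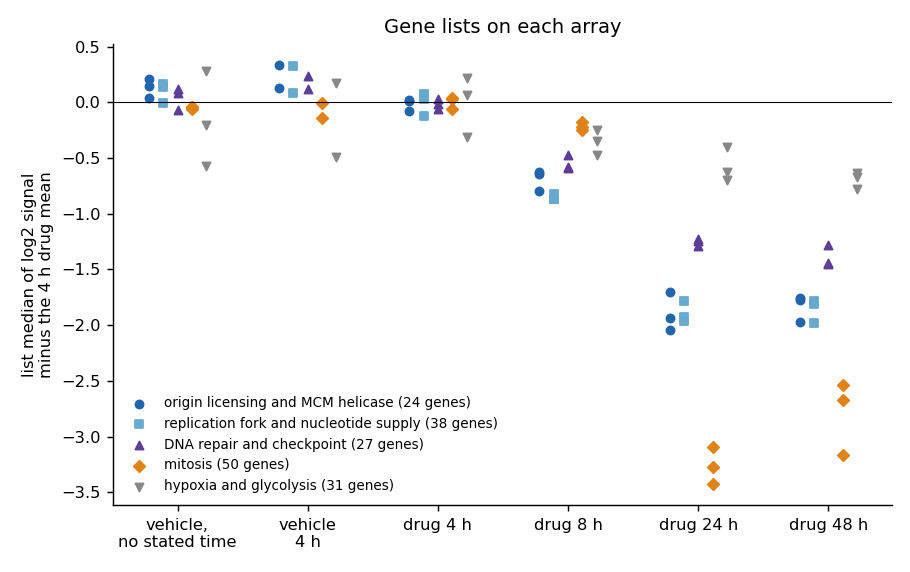
Each point is 1 array, placed by group, and gives the median over a list's genes of the log2 signal minus the mean of the 4 h drug arrays. Licensing, fork and repair genes are lower at 8 h (for the fork list -0.824, -0.867 and -0.867) and lower again at 24 h, while the mitosis list is at -0.222, -0.252 and -0.174 at 8 h and between -3.43 and -3.09 at 24 h; the hypoxia list spreads widely within the vehicle and 4 h groups.

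Markers of some other cell types and neuronal genes were among those with a more positive later step. Of 20 tested skeletal muscle markers 12 were called with a more positive later step, with a median of 2.49, against 3.27% of all genes. So were 8 of 19 macrophage markers and 11 of 43 neuronal genes. The same held for 3 of 11 pericyte, 2 of 17 fibroblast, 2 of 7 adipocyte, 2 of 10 astrocyte and 1 of 9 oligodendrocyte markers. Of 18 endothelial markers 0 were called, and no neutrophil, lymphocyte, skin or erythroid marker was. A more negative later step was called for 1 fibroblast marker, 1 astrocyte marker and 2 neuronal genes. Muscle markers summed to 14560.0 to 19890.0 at 24 h. In the vehicle tumours without a stated time the same sum ran from 1269 to 13520, so it varied widely between tumours without drug. The list's median relative to the 4 h drug mean was 1.43, 2.55 and -1.23 on the 48 h arrays. Tnnc2, a fast-muscle troponin, had steps of -0.24 and 3.08 (3.32, SE 0.78, adjusted p = 0.02). Its adjusted p was 0.6 in the 23-array fit and up to 0.15 with an array left out. The actin log2 ratio of 3' to 5' was 1.41 to 1.83 at 24 h, above all arrays of 4 h and 8 h. The part of muscle content and RNA integrity in the later step was not tested.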

How the data were processed

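RNA of medulloblastoma tumours was measured on 23 Affymetrix arrays. The deposited values are linear signal intensity, made by the authors with MAS5, per the submitters' processing notes; its version is not given in the sources used here. All arrays share a 2% trimmed mean of 150, so the authors had scaled them to it. The 45101 probe sets are more than the array named in the design text (430A 2.0) holds and have the layout of the larger array of that family. Array intensities give no counting error, and the number of arrays limits the precision.

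Arrays were grouped by description. The 64 control probe sets were left out, and 34958 probe sets had 1 gene symbol, 932 several and 9211 none in the platform annotation. Values were log2(signal + 16), and probe sets above the 40th percentile of their array on 3 or more of the fitted arrays were tested. The fit was limma 3.58.1 (eBayes with trend, 4 residual and 8.3 prior degrees of freedom) in R 4.3.3, with Benjamini-Hochberg adjusted, two-sided p-values over all tested probe sets. On simulated data it called 10 of 50 probe sets changed by 0.5 on the log2 scale and 35 of 50 changed by 1. It called 45 of 50 changed by 1.5, 50 of 50 changed by 2 and 9 of 26878 left unchanged. The changed ones were drawn only from tested probe sets of higher mean signal, so their counts do not cover the lowest signals tested. A gene that was not called may thus still have changed, in some cases by 1 or 1.5 on the log2 scale. Each gene was represented by the probe set whose mean log2 signal was highest. Promoters came from RefSeq, and 9818 of 12153 tested genes had one.

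The members, lists and tests were chosen with earlier results of these data known. Named genes are 8 Hedgehog genes, the 10 largest rises and falls among called probe sets that do not overlap, up to 4 called members of each list (where none is called, the 2 with the smallest p), and the 5 largest on either side of the difference of steps. Other list members are named to account for their list and were picked with their values in view. Probe sets marked _s_at or _x_at may share probes with other transcripts, so that Aurkb, Ccne1, Cdc20, Cdk4, Chek1, Dbp, Fdft1, Fen1, Gins2, H2aw, Hes6, Hmgb2, Hmgcs1, Igfbp5, Mcm3, Mcm5, Mcm7, Mt1, Ncaph, Nhp2, Phgdh, Pold1, Rrm2, Shmt2, Smo, Suz12 and Tbata are uncertain; not all probe sets of a gene were always called. List genes without a named probe set are not analysed here.

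The results were recomputed with an offset of 1 or 64, without a filter, with a filter at the 60th percentile or on the mean, with quantile normalization, eBayes without trend, all 23 arrays in the fit, a replicate block, every tested probe set of a gene, and without each array in turn. Array weights were added after the data were seen.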

Additional observations from a re-analysis of the deposited data

How the results depend on the processing

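The 726 called probe sets of the 4 h to 8 h step became 180 with all 23 arrays in the fit, 222 without the trend option, 422 with no filter (more probe sets tested) and 1122 with array weights, which were chosen after seeing the data, and 472 with the replicate number as a block. Leaving out 1 array gave 355 to 834. The difference of steps, with 1640 called, gave 469 with all 23 arrays, 630 without the trend and 795 to 1574 with an array left out; 1071 were called without 8 h replicate 2, 822 without 8 h replicate 1 and 795 without 8 h replicate 3. The 122 called list genes became 56 with all 23 arrays and 58 without the trend. The cause of these differences was not tested, and the other alternatives run stayed within 1.5 times of each of these totals. No named gene reversed its direction under any alternative run. Counts have no direction to reverse, and list medians close to 0 could change sign. That of the Hedgehog components went from 0.00527 to -0.00262 with quantile normalization. The replicate number pairs arrays in number only: deviations of same-numbered 4 h and 8 h arrays correlated between -0.048 and 0.032, and of other pairs between -0.06 and 0.066. With the block, 154 of the 472 calls were higher, against 267 of 726 without it, and the difference of steps had 1395 calls and the lists 96 genes. Signals near 0, such as those of Gli1, Epha8 and Prr16 at 8 h, limit the size of fold changes.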
